A study of Mus musculus with 8 samples.

Results

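The genes described here encode the chaperones, disulfide isomerases and degradation factors of the endoplasmic reticulum, together with the sensors of the unfolded protein response and the targets of the integrated stress response. They are 39 genes, chosen by name with earlier results of these data known, of 24507 rows in the deposited table. All 39 passed the filter on low values (a mean linear value of at least 10). The mice were wild-type C57BL/6J females, of an inbred laboratory strain, and RNA of the whole stomach was sequenced 3 days after surgery. The treated group, with 4 samples, had both adrenal glands removed (adrenalectomy), which takes away the source of glucocorticoids, aldosterone and adrenaline, and the control group, also with 4 samples, had a sham operation. The labels give no age, and nothing in them ties each sample to an animal of its own, so the p-values rest on the spread among these 8 samples, which may be technical. The study concerned the restraint of gastric inflammation by endogenous glucocorticoids, and the comparison asks what the loss of the adrenals does to expression in the stomach. All values are log2 expression values normalized between samples by the authors, and a log2 difference is adrenalectomy minus sham.

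Proteins that enter the secretory pathway are folded in the endoplasmic reticulum by chaperones such as BiP and by enzymes that form disulfide bonds and trim sugars, and those that fail to fold are sent out for degradation. When unfolded proteins accumulate, the sensors IRE1, ATF6 and PERK start the unfolded protein response. IRE1 splices the message of Xbp1, ATF6 is cut to release a transcription factor, and both induce chaperones and degradation factors, while PERK slows translation and raises ATF4 and its targets. In the stomach this machinery is prominent in the chief cells, which secrete pepsinogen, and in the mucous cells.

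Some libraries stood apart. Adrenalectomy replicate 1 had the highest level of liver genes, which were uneven in other libraries too. The albumin gene Alb had log2 values of 17.69, 14.28, 12.57 and 9.39 in adrenalectomy samples, against 8.83, 8.79, 9.06 and 14.16 in sham samples. The 12 liver markers had a median log2 difference of 1.98 and no call, and their part in the chaperone values was not tested. Sham replicates 2 and 3 had log2 values of 12.65 and 12.55 for the skeletal muscle actin gene Acta1, against 7.73 to 8.50 in the other 6 samples. Their 14 squamous epithelium markers summed to linear values of 365 and 358 (all such sums are in units of 1000), against 42.2 to 187 in adrenalectomy samples and 82.5 and 156 in the other sham samples. Sham replicate 1 had the highest summed linear values of 8 surface mucous cell markers (8653, against 7224 to 7908 in adrenalectomy samples and 6833 to 7331 in the other sham samples) and of 9 mucous neck cell markers (299, against 212 to 236 in adrenalectomy samples and 171 to 189 in the other sham samples). By mean log2 value, its surface mucous markers stood at 18.33, against 18.04 to 18.22 in adrenalectomy samples and 17.95 to 18.07 in the other sham samples. Its mucous neck markers stood at 12.59 on that measure, level with adrenalectomy replicate 1 at 12.59, against 12.01 to 12.21 in the other sham samples. Of stomach markers, the pepsinogen gene Pgc stood at log2 values of 22.97 to 23.23 in adrenalectomy samples and 22.97 to 23.59 in sham samples, and the proton pump gene Atp4b of parietal cells at 18.32 to 18.37 in adrenalectomy samples and 18.26 to 18.48 in sham samples. Pancreatic acinar cells also hold much endoplasmic reticulum, and their defining genes were near the floor of the table, with Cpa1 at a log2 value of -1.72 in all 8 samples and Prss2 at 2.70 to 2.76. Their 14 markers summed to linear values of 9.37 to 11.6 in adrenalectomy samples and 10.9 to 13.0 in sham samples.

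Of 13 luminal chaperones and cofactors, 5 rose after adrenalectomy by modest amounts. These were Hyou1, Sdf2l1, Creld2, Hspa5 and Manf, which encode BiP, its helpers and stress-induced resident proteins, and they rose 1.24-fold to 1.36-fold. Syvn1, a ubiquitin ligase of degradation, and Atf6b, a relative of the sensor ATF6, rose by less. Of the 39 genes, 7 rose (17.9%) and none fell, against 0.930% of the 16889 tested genes called higher and 0.782% called lower (limma, Benjamini-Hochberg adjusted over all tested genes, threshold 0.05). At an unadjusted p under 0.05, 21 of the 39 were higher and 1 was lower, against 1644 higher and 1601 lower of the 16889 tested genes. The median log2 difference was 0.12 for the 39 genes and -0.00088 for all tested genes, and the mean was higher after adrenalectomy in 34 of the 39 (87.2%), against 49.5% of all tested genes. The 4 adrenalectomy samples lay above all 4 sham samples in 10 of the 39 genes, against 6.30% of all tested genes, and below all sham samples in 1, against 6.13%. In these whole-stomach samples, more cells of a secretory type and more RNA per cell cannot be told apart.

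The count of calls depended on single libraries. It was 16 of 39 without sham replicate 1, against 2.07% of all tested genes called higher in that fit and 1.68% called lower, where none of the 39 was called lower. It was 3 without adrenalectomy replicate 1, 2 without adrenalectomy replicate 4, and 1 without adrenalectomy replicate 2 or 3 or sham replicate 2, 3 or 4, and Hyou1 was called in each of these 8 fits. Over all 17 alternative settings, Hyou1 was called in 15, Sdf2l1 in 9, Creld2 and Syvn1 in 8, Hspa5 and Manf in 6 and Atf6b in 4. Over the whole table, 289 genes (1.71%) were called in either direction, with 633 without sham replicate 1 and 27 to 86 without any other single sample. A further fit left out the library richest in liver genes (adrenalectomy replicate 1) and the pair richest in muscle genes (sham replicates 2 and 3). There limma called 0 genes of the table, with 1822 at an unadjusted p under 0.05, and the median log2 difference of the 39 was 0.09. Liver signal stayed uneven in it, with Alb at 14.28, 12.57 and 9.39 in the kept adrenalectomy samples and 8.83 and 14.16 in the kept sham samples.

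**Figure D1:**
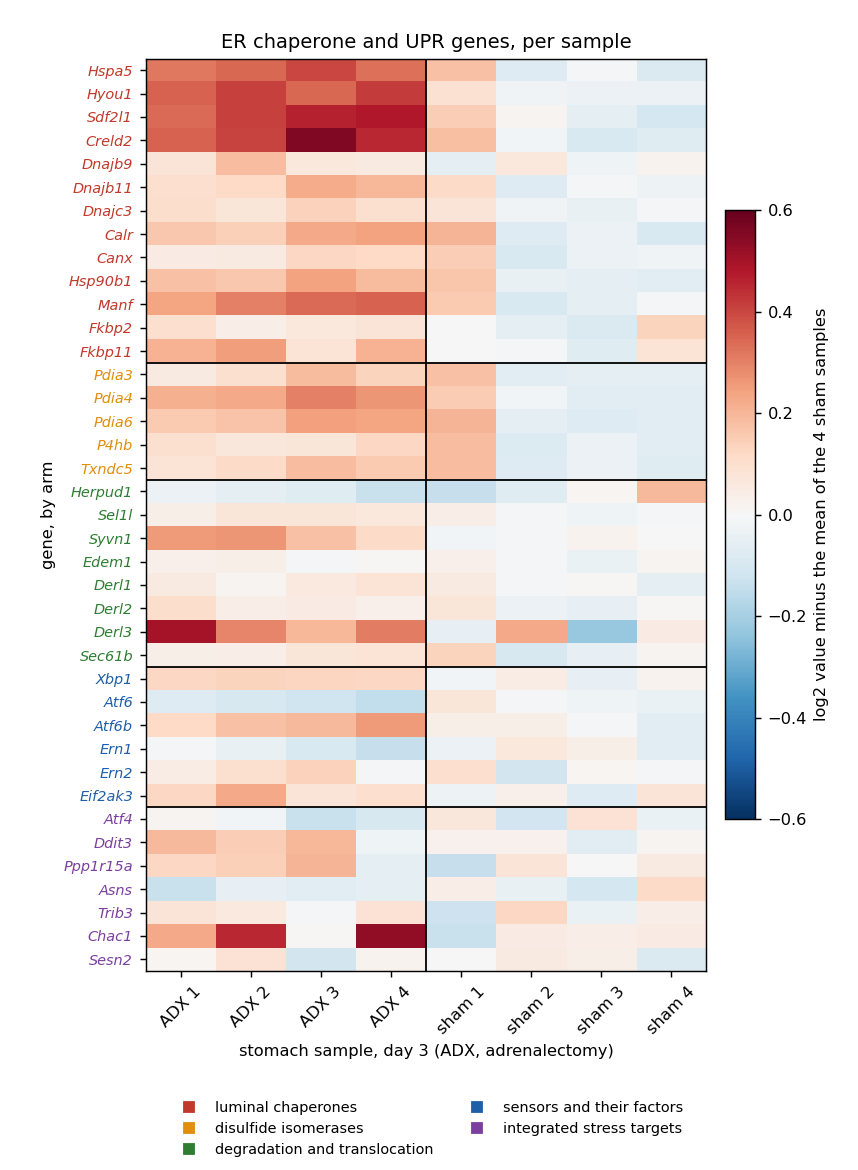
The log2 value of each of the 39 genes in each sample, minus the mean of the 4 sham samples, with adrenalectomy (ADX) samples on the left and sham samples on the right and genes grouped by arm. The adrenalectomy columns are dark in all 4 samples for Hspa5, Hyou1, Sdf2l1 and Creld2 and uneven for Derl3 and Chac1, and the sham replicate 1 column is above the other sham columns for most chaperones and all 5 disulfide isomerases.

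Of the 13 luminal chaperones and cofactors, 5 were called, against 0.930% of all tested genes called higher. The median log2 difference of the 13 was 0.19, and each mean lay above that of the sham samples. Hyou1 encodes a large chaperone that exchanges the nucleotide of BiP. It had log2 values of 13.71, 13.76, 13.69 and 13.77 in adrenalectomy samples, against 13.44, 13.33, 13.31 and 13.32 in sham samples. The groups were well separated, and the rise was 1.30-fold (log2 difference 0.38 ± 0.04 SE, limma adjusted p = 0.00825), the p with rank 6 in the table. Hspa5, which encodes BiP itself, had 15.93, 15.96, 16.02 and 15.95 in adrenalectomy samples, against 15.79, 15.54, 15.60 and 15.53 in sham samples. The groups did not overlap, and the highest sham sample, replicate 1, lay closer to the lowest adrenalectomy sample than to any other sham sample (log2 difference 0.35 ± 0.06 SE, limma adjusted p = 0.0361).

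Sdf2l1, whose product works with the co-chaperone ERdj3 on BiP clients, had 11.45, 11.52, 11.57 and 11.59 in adrenalectomy samples, against 11.26, 11.13, 11.05 and 11.00 in sham samples, a rise of 1.34-fold (log2 difference 0.42 ± 0.06 SE, limma adjusted p = 0.0223). Creld2, a resident protein induced by reticulum stress, had 11.71, 11.76, 11.91 and 11.81 in adrenalectomy samples, against 11.53, 11.34, 11.26 and 11.28 in sham samples. Its rise of 1.36-fold was the largest of the 39 genes (log2 difference 0.44 ± 0.07 SE, limma adjusted p = 0.0288). Manf, a small BiP-binding protein that can also be secreted, had 13.01, 13.07, 13.11 and 13.12 in adrenalectomy samples, against 12.93, 12.68, 12.72 and 12.76 in sham samples (log2 difference 0.31 ± 0.05 SE, limma adjusted p = 0.0398). In these 3 genes, as in Hspa5, sham replicate 1 was the highest sham sample and still lay below every adrenalectomy sample.

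**Figure D2:**
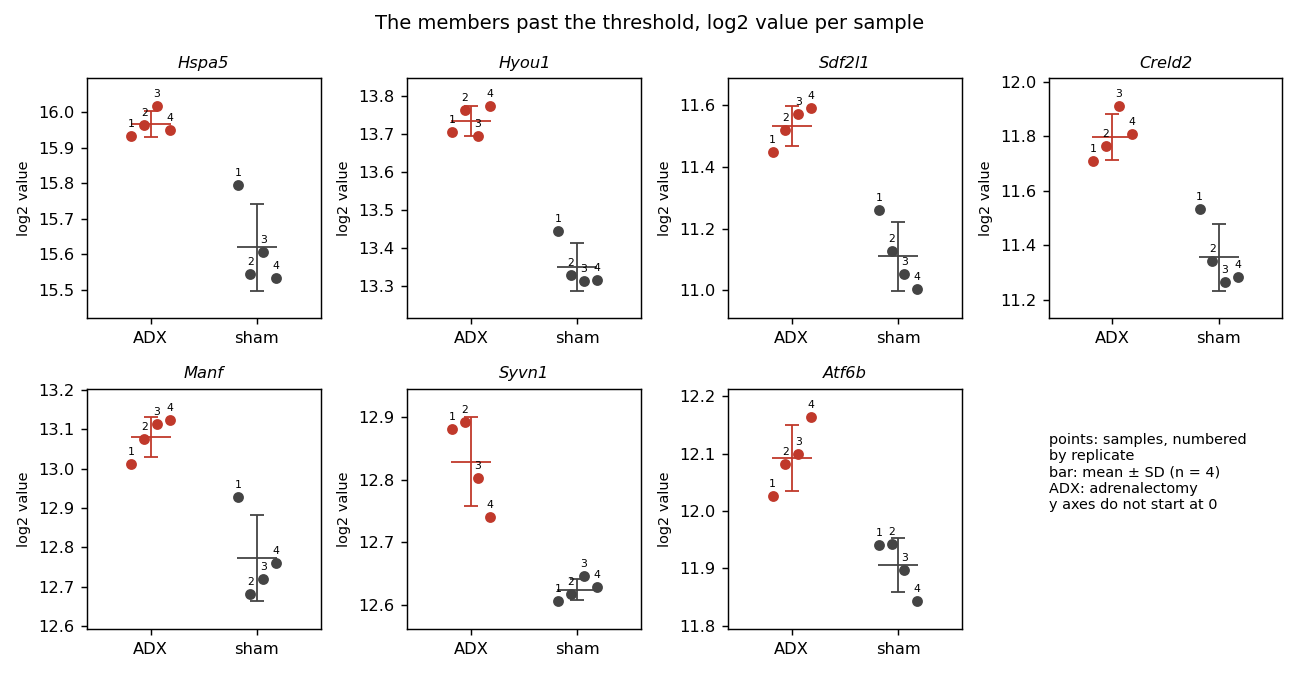
Log2 values of the 7 members past the threshold in each sample, with adrenalectomy (ADX) left of sham, replicate numbers at the points and bars at the mean ± SD (n = 4). The groups do not overlap in any of the 7, and sham replicate 1 is the sham sample nearest to the adrenalectomy samples in Hspa5, Hyou1, Sdf2l1, Creld2 and Manf.

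The promoters of these genes were searched for elements of the response. The endoplasmic reticulum stress response element (ERSE), which binds NF-Y at one end and ATF6 or XBP1 at the other, was searched as CCAAT followed by 9 bases of any kind and then CCACG, on both strands, in RefSeq windows of GRCm38.p6 running from 250 bases before to 50 bases after a gene's start. The element was first described in the human counterparts of Hspa5, Hsp90b1 and Calr, so its presence in this list is background. Windows were matched for 34 of the 39 genes, all but Hyou1, Manf, Derl1, Ern2 and Atf6. The element was in 9 of the 34 (26.5%), against 22 of 12829 tested genes with a window (0.171%) and 0.119% of all 32851 windows. Those 9 of the 39 genes were Hspa5, Creld2, Dnajc3, Calr, Canx, Hsp90b1, Pdia6, Syvn1 and Derl3. The 3 called genes that hold the element are shown first, then Hsp90b1, which holds a pair, Calr and Pdia6 as abundant members that were not called, and Herpud1, which holds the second form of the element and had a lower mean after adrenalectomy. Each line gives the strand of the gene in the window, reads 5′ to 3′ towards the start of the gene, and has the matches in capitals. A match on the opposite strand reads CGTGG, then 9 bases of any kind, then ATTGG.
Hspa5 (chr2:34772010-34772058, plus strand): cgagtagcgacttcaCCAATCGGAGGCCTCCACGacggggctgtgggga
Creld2 (chr15:88819505-88819553, plus strand): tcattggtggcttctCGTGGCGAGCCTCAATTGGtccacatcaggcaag
Syvn1 (chr19:6046517-6046565, plus strand): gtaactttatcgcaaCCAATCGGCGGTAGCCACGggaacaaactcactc
Hsp90b1 (chr10:86705518-86705671, minus strand): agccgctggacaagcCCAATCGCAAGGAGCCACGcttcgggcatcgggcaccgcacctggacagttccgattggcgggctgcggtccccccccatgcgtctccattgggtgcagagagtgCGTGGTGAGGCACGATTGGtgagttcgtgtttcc
Calr (chr8:84847060-84847108, minus strand): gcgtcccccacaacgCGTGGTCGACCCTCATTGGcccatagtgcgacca
Pdia6 (chr12:17266476-17266524, plus strand): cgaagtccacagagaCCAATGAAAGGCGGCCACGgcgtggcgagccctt
Herpud1 (chr8:94386362-94386402, plus strand): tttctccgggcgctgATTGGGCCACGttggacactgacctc

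Of the 9 members with an ERSE, 3 were called higher, with a median log2 difference of 0.20 and a range of 0.085 to 0.44. Of the 25 members with a window and no ERSE, 2 were called, Sdf2l1 and Atf6b, with a median of 0.09 and a range of -0.075 to 0.42. Among all 12807 tested genes with a window and no ERSE, 0.898% were called higher. Members with and without an ERSE also differ in arm, because most members with an ERSE are luminal chaperones and all integrated stress targets are among the 25. The other 13 tested genes with an ERSE in their window, none of them in the wider pathway list, had log2 differences of -0.15 to 0.08 and no call. They included Alg12, a mannosyltransferase of N-glycan assembly named here after its values were seen, with a log2 difference of 0.07. The second form, ATTGG followed by 1 base of any kind and CCACG, was in 2 of the 34 genes, Dnajb11 and Herpud1, against 0.0624% of tested genes with a window. The core TGACGTGG of the unfolded protein response element was in 1 of the 34, Txndc5, against 0.990% of tested genes with a window. The exact string TGATGCAAT, searched for the ATF4 element, was in 0 of the 34, against 0.187% of tested genes with a window. No variant of that string and no site outside the window was searched, so this does not show that the genes lack an ATF4 site. No matches of different motifs overlapped in these windows, and a match describes the letters only.

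The other 8 luminal members had higher means and were not called. Hsp90b1 encodes the reticulum's member of the Hsp90 family. It had log2 values of 15.69, 15.68, 15.76 and 15.71 in adrenalectomy samples, against 15.68, 15.47, 15.46 and 15.45 in sham samples (log2 difference 0.19, limma adjusted p = 0.113). The groups overlapped through sham replicate 1 alone, and without it the difference was 0.25 (limma adjusted p = 0.00989). Calr, the lectin chaperone calreticulin, had 15.71, 15.70, 15.78 and 15.79 in adrenalectomy samples, against 15.75, 15.48, 15.52 and 15.46 in sham samples, with the same single overlapping sample (log2 difference 0.19, limma adjusted p = 0.170, and 0.26 with adjusted p = 0.0156 without sham replicate 1). Of the 17 alternative settings, Hsp90b1 was called in 2 and Calr in 1. Leaving out the highest sham sample of a gene raises its difference.

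Among the J-domain co-chaperones that deliver clients to BiP, Dnajb11 (ERdj3) differed by 0.16 and Dnajc3, which also inhibits PERK, by 0.10, and both were called without sham replicate 1, at limma adjusted p = 0.0373 and 0.0345. Each was called in that 1 of the 17 alternative settings only, and sham replicate 1 was its highest sham sample. Dnajb9 (ERdj4), a strongly induced XBP1 target that also binds IRE1, differed by 0.09 (limma adjusted p = 0.240, and 0.303 without sham replicate 1). Canx, the membrane-bound partner of calreticulin, differed by 0.09, the prolyl isomerase Fkbp2 by 0.07 and the prolyl isomerase Fkbp11 by 0.19 (limma adjusted p = 0.0939), and none of these was called with or without that sample.

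The 5 disulfide isomerases, which form and rearrange disulfide bonds, were all higher on average, with a median log2 difference of 0.13. None was called in the full data, and 2 were higher at an unadjusted p under 0.05 (limma), against 1644 of the 16889 tested genes. All 5 were called by limma without sham replicate 1, where the median was 0.20. That sample was the highest sham sample in all 5, so leaving it out raises each difference. Of the 17 alternative settings, Pdia3, P4hb and Txndc5 were called in this 1 only, Pdia6 in 2 and Pdia4 in 4. Pdia4 had log2 values of 13.27, 13.28, 13.36 and 13.32 in adrenalectomy samples, against 13.21, 13.04, 12.99 and 12.99 in sham samples. These groups did not overlap, and the difference was just short of the threshold (0.25 ± 0.05 SE, limma adjusted p = 0.0523). Pdia6 had 14.23, 14.25, 14.32 and 14.31 in adrenalectomy samples, against 14.28, 14.02, 14.00 and 14.01 in sham samples (log2 difference 0.20, limma adjusted p = 0.141). P4hb, the founding isomerase and also a subunit of prolyl hydroxylase, had 16.38, 16.36, 16.36 and 16.41 in adrenalectomy samples, against 16.47, 16.20, 16.26 and 16.22 in sham samples. Sham replicate 1 was the highest of all 8 samples for P4hb and for Txndc5. The log2 difference was 0.09 for P4hb, 0.12 for Pdia3, the partner of calreticulin, and 0.13 for Txndc5.

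Sham replicate 1 was the highest sham sample in 10 of 13 luminal members, all 5 isomerases, 5 of 8 degradation and translocation members, 2 of 6 sensors and 1 of 7 integrated stress targets, against 31.1% of all tested genes. With it left out, the adrenalectomy samples lay above the sham samples in 23 of the 39 genes, against 11.9% of all tested genes, and in none of the 7 integrated stress targets. These shares are not like for like, because leaving out the highest sham sample makes a gap easier. Sham replicate 1 was that sample in 23 of the 39, against 31.1% of all tested genes. The high mucous cell markers of this library were given above, and their part in these values was not tested.

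**Figure D3:**
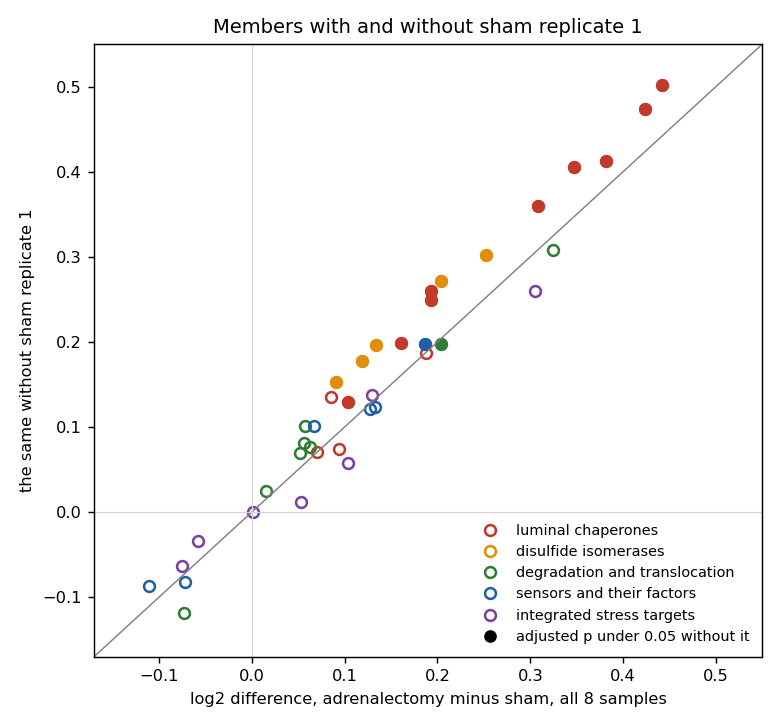
Log2 differences (adrenalectomy minus sham) of the 39 genes in all 8 samples on the x axis and without sham replicate 1 on the y axis, with filled points for genes past the threshold without that sample. The isomerases and most luminal chaperones lie above the diagonal, with 16 filled points in place of 7 calls in the full data.

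Of the 8 degradation and translocation genes, 1 was called, against 0.930% of all tested genes called higher. The median log2 difference over the 8 was 0.06, with a higher mean after adrenalectomy in 7. Syvn1 encodes HRD1, the ubiquitin ligase that marks misfolded proteins at the reticulum membrane. It had log2 values of 12.88, 12.89, 12.80 and 12.74 in adrenalectomy samples, against 12.61, 12.62, 12.65 and 12.63 in sham samples. The sham samples were close together and all below the adrenalectomy samples, a rise of 1.15-fold (log2 difference 0.20 ± 0.04 SE, limma adjusted p = 0.0393). The call was kept without adrenalectomy replicate 4 or sham replicate 1 and lost without any other single sample.

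Sel1l, the partner of HRD1, differed by 0.06 (limma adjusted p = 0.190), and Edem1, which picks out glycoproteins for degradation, by 0.01. The derlins, membrane proteins through which clients leave the reticulum, differed by 0.05 for Derl1, 0.06 for Derl2 and 0.32 for Derl3. Derl3 had 10.05, 9.85, 9.75 and 9.86 in adrenalectomy samples, against 9.50, 9.78, 9.33 and 9.60 in sham samples. It had the largest SE of the arm and was not called (SE 0.10, limma adjusted p = 0.141). Derl3 is also on the plasma cell list, whose 7 tested markers had a median log2 difference of 0.05 and no call. Averaged in log2 over the 9 markers with a row, Derl3 among them, the list stood at 6.52 to 6.69 in adrenalectomy samples and 6.45 to 6.49 in sham samples. These groups did not overlap, by a small margin, and the average without Derl3 was not taken. The summed linear values of the list overlapped, at 18.7 to 20.2 in adrenalectomy samples and 17.6 to 19.6 in sham samples. The plasma cell gene Jchain had 5.99 to 6.97 in adrenalectomy samples and 5.86 to 5.96 in sham samples. It was not called (log2 difference 0.41, limma adjusted p = 0.305). The part of plasma cells in the Derl3 and chaperone values was not tested. Sec61b, a subunit of the translocation channel, differed by 0.06. Herpud1, a stress-induced scaffold of the HRD1 complex, was the exception in direction, with 14.24, 14.22, 14.21 and 14.14 in adrenalectomy samples, against 14.14, 14.20, 14.29 and 14.47 in sham samples (log2 difference -0.07, limma adjusted p = 0.570), and the groups overlapped.

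**Figure D4:**
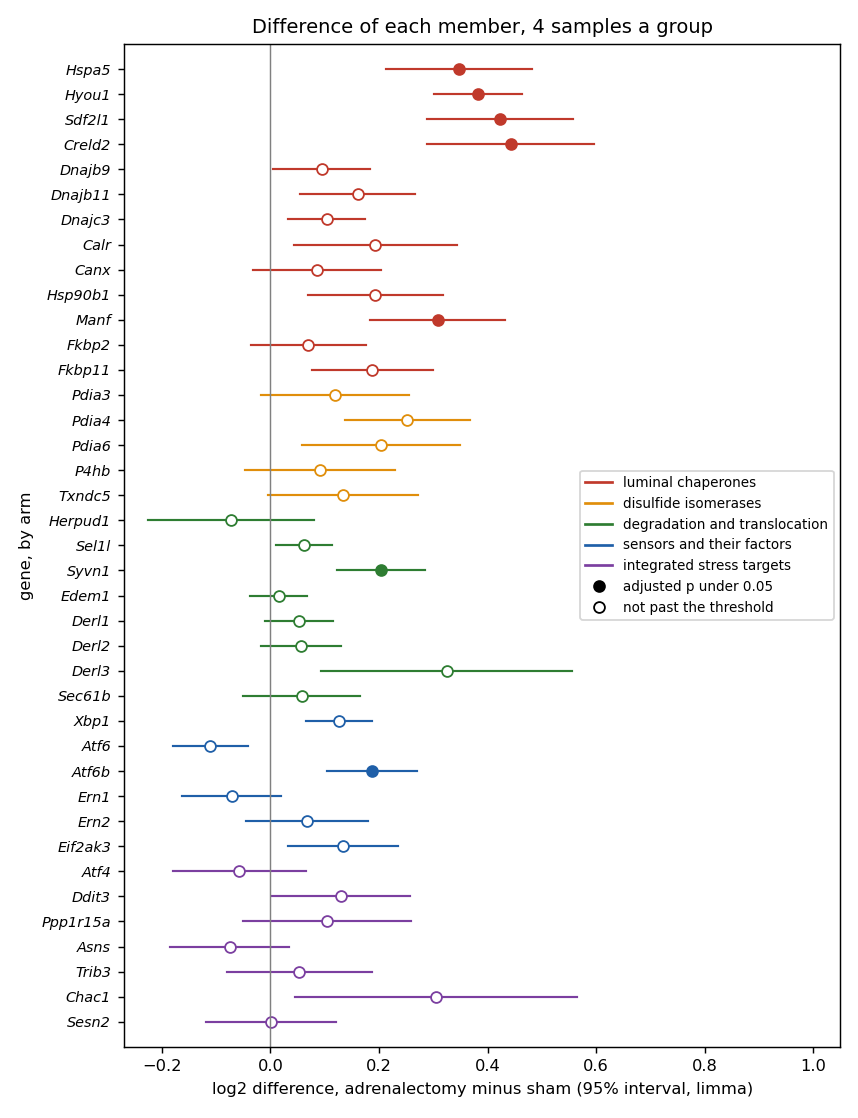
Log2 difference (adrenalectomy minus sham) of each of the 39 genes with its 95% interval from limma, grouped by arm, with filled points for adjusted p under 0.05. The 5 filled luminal chaperones have the highest positions among called genes, from 0.31 to 0.44, and the intervals of the integrated stress targets Atf4, Ppp1r15a, Asns, Trib3 and Sesn2 include 0.

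Of the 6 sensors and their transcription factors, 1 rose and none fell, against 0.930% of all tested genes called higher and 0.782% called lower. A higher mean after adrenalectomy was seen in 4 of the 6. Atf6b, which encodes a membrane-bound relative of ATF6, had log2 values of 12.03, 12.08, 12.10 and 12.16 in adrenalectomy samples, against 11.94, 11.94, 11.90 and 11.84 in sham samples, a rise of 1.14-fold (log2 difference 0.19 ± 0.04 SE, limma adjusted p = 0.0487). The Atf6b call was kept without sham replicate 1 and lost without any other single sample, and it also ended without the intensity trend (limma adjusted p = 0.0542), with quantile normalization (0.0544), with no filter on low values (0.0770) and with samples centred on their median (0.0996). Atf6 lay the other way, with 12.65, 12.63, 12.61 and 12.58 in adrenalectomy samples, against 12.80, 12.72, 12.71 and 12.69 in sham samples. Every adrenalectomy sample was below every sham sample, and the difference of -0.11 ± 0.03 SE was not called (limma adjusted p = 0.106). Atf6 was the 1 member of the 39 whose groups were separated in this direction.

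Xbp1, the factor downstream of IRE1, had 15.13, 15.14, 15.13 and 15.13 in adrenalectomy samples, against 14.98, 15.05, 14.95 and 15.03 in sham samples. The adrenalectomy samples were nearly equal to each other and above all sham samples, by 0.13 ± 0.03 SE (limma adjusted p = 0.0597). The table gives 1 value per gene, so the spliced form of Xbp1, the usual sign of IRE1 activity, was not measured. Ern1, which encodes IRE1 alpha, had 11.39, 11.36, 11.31 and 11.27 in adrenalectomy samples, against 11.37, 11.47, 11.44 and 11.34 in sham samples (log2 difference -0.07, limma adjusted p = 0.365). Ern2, which encodes the IRE1 beta of mucosal epithelia, had 13.51, 13.57, 13.61 and 13.46 in adrenalectomy samples, against 13.57, 13.36, 13.48 and 13.46 in sham samples (log2 difference 0.07, limma adjusted p = 0.481). The groups overlapped for each of the IRE1 genes. Eif2ak3, which encodes PERK, had 12.55, 12.65, 12.50 and 12.52 in adrenalectomy samples, against 12.40, 12.46, 12.35 and 12.50 in sham samples, with no overlap by a small margin (log2 difference 0.13, limma adjusted p = 0.163).

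The integrated stress targets showed no call in the full data, with a median log2 difference of 0.05. At an unadjusted p under 0.05 (limma), 2 of 7 were higher, against 1644 of the 16889 tested genes. Atf4, the factor that PERK raises mainly through translation, had log2 values of 13.96, 13.92, 13.81 and 13.85 in adrenalectomy samples, against 14.01, 13.83, 14.03 and 13.90 in sham samples (log2 difference -0.06, limma adjusted p = 0.577). Asns, the asparagine synthetase that ATF4 induces, had 13.64, 13.73, 13.72 and 13.73 in adrenalectomy samples, against 13.82, 13.73, 13.67 and 13.89 in sham samples (log2 difference -0.08, limma adjusted p = 0.420). Ddit3, which encodes the pro-apoptotic factor CHOP, had 10.16, 10.11, 10.17 and 9.94 in adrenalectomy samples, against 9.99, 9.99, 9.90 and 9.98 in sham samples. Its groups overlapped through adrenalectomy replicate 4 (log2 difference 0.13, limma adjusted p = 0.254).

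Chac1, a glutathione-degrading enzyme and ATF4 target, had 8.90, 9.13, 8.68 and 9.20 in adrenalectomy samples, against 8.54, 8.72, 8.71 and 8.72 in sham samples. It was high in adrenalectomy replicates 2 and 4 and within the sham range in adrenalectomy replicate 3 (log2 difference 0.30 ± 0.11 SE, limma adjusted p = 0.201). Ppp1r15a, the phosphatase subunit GADD34 that reverses the translational block, differed by 0.10 (limma adjusted p = 0.431), the pseudokinase gene Trib3 by 0.05 (limma adjusted p = 0.639) and Sesn2 by 0.00076 (95% interval -0.12 to 0.12). None of the 7 was called without sham replicate 1 either, where the median was 0.01.

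The levels of single genes spanned a wide range. Per kilobase of exon (GENCODE M21 lengths), the mean linear value was highest for P4hb, at 29789 ± 495 in adrenalectomy samples and 28054 ± 2547 in sham samples (SD, n = 4 each), followed by Calr, at 19092 ± 643 in adrenalectomy samples and 16753 ± 1650 in sham samples. Hspa5 reached 15144 ± 384 in adrenalectomy samples and 11932 ± 1037 in sham samples on this per-kilobase scale. Among the sensors and their factors, Xbp1 stood at 11035 ± 35 in adrenalectomy samples and 10109 ± 305 in sham samples, and Ern1 at 316 ± 12 in adrenalectomy samples and 332 ± 14 in sham samples. Trib3 was the lowest of the 39, at 89.9 ± 2.8 in adrenalectomy samples and 86.8 ± 6.5 in sham samples. The mean log2 value over the luminal chaperones was 13.35, 13.38, 13.41 and 13.40 in adrenalectomy samples, against 13.26, 13.12, 13.11 and 13.13 in sham samples, and that over the isomerases was 14.79, 14.81, 14.87 and 14.86 in adrenalectomy samples, against 14.85, 14.61, 14.62 and 14.61 in sham samples.

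The rest of the secretory pathway was followed in a list of 202 further genes, of which 197 were tested. A total of 4 rose and 1 fell (limma, adjusted over all tested genes), and the median log2 difference was 0.03. The share called higher, 2.03%, stood nearer to the 0.930% of all tested genes than that of the 39. The mean was higher after adrenalectomy in 69.0% of the 197, against 49.5% of all tested genes. The adrenalectomy samples lay above all sham samples in 12.2%, against 6.30%, and below them in 6 of the 197, against 6.13%. At an unadjusted p under 0.05 (limma), 43 were higher and 10 lower, against 1644 and 1601 of the 16889 tested genes. Pdia5, a further isomerase, rose by 0.30 ± 0.06 SE (limma adjusted p = 0.0479), with 10.84, 10.78, 10.68 and 10.72 in adrenalectomy samples, against 10.60, 10.39, 10.37 and 10.46 in sham samples. Txndc11, a thioredoxin-domain protein of the reticulum, rose by 0.19 (adjusted p = 0.0469), Uggt1, which senses folding of glycoproteins, by 0.13 (adjusted p = 0.0497) and Srprb, a subunit of the signal recognition particle receptor, by 0.13 (adjusted p = 0.0451). All 4 were close to the threshold. Without sham replicate 1 the count called higher was 15 (7.61%, against 2.07% of all tested genes), and it was 0 without any other single sample. Of the 15, 7 were among the 23 glycosylation and glycoprotein quality control genes.

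Within that list, the 36 further chaperones and folding enzymes had a median log2 difference of 0.02, and Qsox1, a sulfhydryl oxidase, differed by 0.32 (limma adjusted p = 0.0546). The 23 glycosylation and glycoprotein quality control genes had a median of 0.07, the highest of the 7 sublists, with Mogs, a glucosidase that trims N-glycans, at 0.19 (limma adjusted p = 0.0613). The 23 translocation genes had a median of 0.03 and the 28 genes of transport between reticulum and Golgi 0.04, where Kdelr2, a retrieval receptor, differed by 0.10 (limma adjusted p = 0.119). The 22 further degradation factors had a median of -0.0012 and no call. Among further regulators, Creb3l1, a membrane-bound factor related to ATF6, differed by 0.23 (limma adjusted p = 0.0550) and Creb3l4 by 0.22 (limma adjusted p = 0.0950).

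The 39 further integrated stress targets held the gene that fell. Slc38a2, an amino acid transporter induced by ATF4, had log2 values of 14.26, 14.28, 14.18 and 14.21 in adrenalectomy samples, against 14.41, 14.42, 14.45 and 14.37 in sham samples, and fell by 0.18 on the log2 scale (SE 0.03, limma adjusted p = 0.0326). Its groups did not overlap, and the call was kept without sham replicate 1 and lost without any other single sample. The next genes of the sublist by p were not called, with Slc7a11, the cystine transporter, at -0.35 (limma adjusted p = 0.0847), Nupr1, a stress-induced regulator, at 0.48 (limma adjusted p = 0.0890) and Slc7a5, an amino acid transporter, at -0.22 (limma adjusted p = 0.106). The other amino acid transporter genes of the sublist, added after their values were seen, were Slc7a1 at -0.05, Slc1a4 at -0.06 and Slc3a2 at 0.01, and none was called. The median of the sublist was 0.03.

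**Figure D5:**
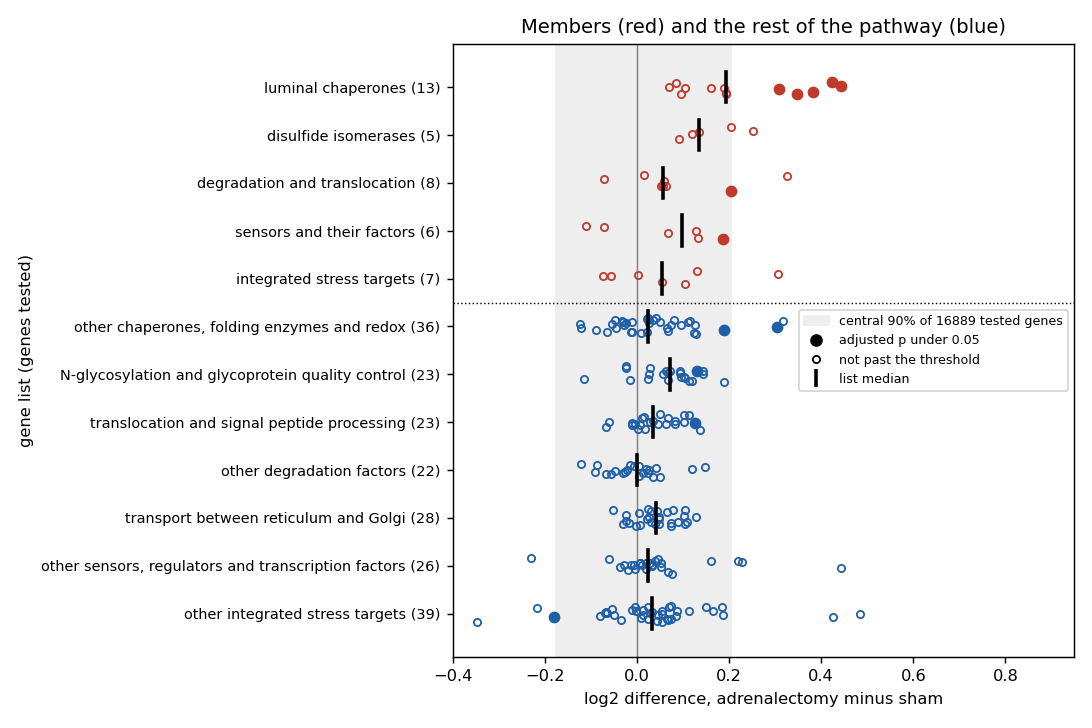
Log2 differences (adrenalectomy minus sham) of each tested gene in the 5 arms of the 39 genes (red) and the 7 sublists of other pathway genes (blue), with black marks at list medians, filled points for adjusted p under 0.05 and a grey band for the central 90% of all tested genes. The luminal chaperones, with a median of 0.19, lie farthest to the right, and the further degradation factors are centred near 0.

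Markers of stomach cell types are given beside these results. Chief cell markers, 10 tested, had no call and a median log2 difference of -0.02, and their summed linear values were 8867 to 10834 in adrenalectomy samples and 9218 to 13960 in sham samples. The chief cell factor gene Bhlha15 stood at log2 values of 11.91 to 12.19 in adrenalectomy samples and 11.69 to 12.26 in sham samples. Mucous neck cell markers had no call in 9 tested and a median of 0.17. Among them the mucin gene Muc6 had log2 values of 14.43, 14.61, 14.60 and 13.99 in adrenalectomy samples, against 14.64, 14.07, 13.75 and 13.76 in sham samples, so that sham replicate 1 was the highest of all 8. There was no call in 10 parietal cell markers, with a median of -0.06, or in 8 surface mucous cell markers, with a median of 0.02. Smooth muscle markers were called lower in 3 of 10, against 0.782% of all tested genes. Their summed linear values were 471 to 503 in adrenalectomy samples and 548 to 564 in sham samples. Macrophage markers, Adgre1 among them, were called higher in 5 of 10, against 0.930% of all tested genes. Their summed linear values were 13.8 to 15.96 in adrenalectomy samples and 11.3 to 11.8 in sham samples. The part of these cell types in the chaperone values was not tested.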

How the data were processed

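Stomach RNA of 4 adrenalectomy and 4 sham samples was compared. Per the submitters' processing notes, the tools were Trim Galore, STAR, featureCounts and DESeq2, with mouse build mm9. For settings, annotation, strand and transformation, the entry is "not given in the sources used here". What the authors deposited are log2 values normalized between samples, whose spread shrank in low genes (median SD 0.024 up to a mean log2 value of 4, 0.081 between 8 and 10), and differences of low genes may be understated. The table holds no counts, so depth is unknown.

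From these, 26 rows whose names had become dates were left out, 8 columns of other samples were not used, and 16889 genes with a mean linear value of at least 10 were tested across the whole table with limma 3.58.1 in R 4.3.3 (intensity trend, group as the only term, two-sided, Benjamini-Hochberg adjustment), and the fit was tested beforehand on simulated data. Of the 202 further pathway genes, 3 had no row under the listed symbol and 2 were below the filter. Alternatives changed the variance model, filter, pseudocount, scaling, block, weights and samples. The rule for named genes took all 39 genes and, of each pathway sublist, called genes and up to 3 others with the smallest p. The members, lists and motifs were chosen with earlier results of these data known. Sequences are RefSeq's on GRCm38.p6, and exon lengths are from GENCODE M21, neither on the authors' build.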

Additional observations from a re-analysis of the deposited data

Results flagged for a closer look

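In 10 of 90 groups of 4 samples, over the 39 genes, the means of their 5 arms and the mean of all 39, 1 sample stood far from the other 3 (Dixon's test at its 95% critical value), and chance flags about 1 in 20. Sham replicate 1 was the sample in 8 of the 10. It stood high in Hyou1 (13.44, others 13.31 to 13.33), Hsp90b1 (15.68, others 15.45 to 15.47), Pdia3 (15.64, others 15.40 to 15.42), Pdia6 (14.28, others 14.00 to 14.02) and Txndc5 (14.67, others 14.40 to 14.45), all as log2 values. The mean log2 values of the luminal chaperones (13.26, others 13.11 to 13.13) and of the disulfide isomerases (14.85, others 14.61 to 14.62) were high in it too. It was low in Chac1 (8.54, others 8.71 to 8.72). Sham replicate 3 was low in Ddit3 (9.90, others 9.98 to 9.99). Adrenalectomy replicate 1 was low in Asns (13.64, others 13.72 to 13.73). The genes of the arms share these libraries, so the flags are not independent of each other, and their cause was not tested.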

How the results depend on the processing

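The 7 calls are the least certain part, and the depth behind them is unknown. Members called lower stayed at 0, and the median log2 difference of the 39 genes stayed positive, under all 17 alternatives. Genes called over the table, the 39 genes called higher and other pathway genes called higher were 170, 2 and 0 with no filter and 156, 4 and 0 with samples centred on their median, where 69 calls were higher and 87 lower (44.2% higher, against 54.3%). They were 624, 11 and 13 with array weights, and 0, 0 and 0 when the 3 libraries richest in liver or muscle genes were left out, with 0 lower. Other pathway genes called higher were 2 without the intensity trend, 6 with the filter at 100 and 1 with quantile normalization, with 0 lower in the last. Leaving out 1 sample gave 27 to 633 genes, 1 to 16 of the 39, and 0 to 15 pathway genes higher and 0 to 1 lower. Log2 differences turned negative for Sesn2 when centred (-0.0117), quantile normalized (-0.0117), weighted (-0.00626) and without adrenalectomy replicate 1, 2 or 4 or sham replicate 4 (-0.00267, -0.0272, -0.00542 and -0.0277), with 0.0383 as its highest value among the fits without 1 sample. They did so for Fkbp2 (-0.00902), Edem1 (-0.0141), Derl2 (-0.00102) and Sec61b (-0.00949) without those 3 libraries. The cause was not tested. The labels do not say that replicate numbers pair samples. After the group mean of each gene was subtracted, same-numbered samples correlated at -0.289, 0.448, -0.118 and -0.635. Only adrenalectomy replicate 2 correlated best with its own number. Adrenalectomy replicates 1 and 3 correlated at 0.635 and 0.565 with sham replicates 4 and 1. Over all tested genes, sham replicates 2 and 3 were the closest pair (SD of their difference 0.105). Some pairs across the groups were also close, such as adrenalectomy replicate 2 and sham replicate 4 (0.157). With the replicate block, limma called 4 genes (2803 at an unadjusted p under 0.05), with 0 of the 39 and 0 pathway genes higher and 0 lower.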

Other observations

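Further genes of the secretory pathway, the next by p in each group, were not called, and are given by their log2 difference (adrenalectomy minus sham) and limma adjusted p. Among chaperones, Hspa13 differed by 0.11 (0.0788) and Cnpy3 by 0.11 (0.0847). In glycosylation and sorting of glycoproteins, the cargo receptor gene Lman1 differed by 0.10 (0.0725) and Dpagt1, which starts N-glycan assembly, by 0.14 (0.0841). Among translocation genes, Sec61a1, the channel itself, differed by 0.10 (0.0884), Spcs3 of the signal peptidase by 0.10 (0.128) and Ssr2 by 0.14 (0.189). The coat genes Sec23b and Sec16a of export from the reticulum differed by 0.11 (0.141) and 0.08 (0.179). Of the degradation factors, Erlec1, a lectin, differed by -0.09 (0.119), Herpud2 by -0.12 (0.158) and the ubiquitin-conjugating enzyme gene Ube2g2 by 0.12 (0.164). Rtcb, the ligase that joins the spliced Xbp1 message, differed by 0.08 (0.0827).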
